A study of Mus musculus with 30 samples.

Results

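The arrays labelled Chek1_R and Ppp2r1b_R after 5 days without doxycycline (Dox) were compared directly, 3 against 3 of the 30 arrays deposited. They were taken by their labels alone, Chek1_R −Dox and Ppp2r1b_R −Dox. Both names stand for rescue clones of the mouse embryonic stem cell (ESC) line Ainv15, which expresses the reverse tetracycline transactivator. A lentiviral cassette in each clone carries an shRNA against the endogenous mRNA and a tetracycline-responsive copy of the gene which that shRNA does not match. All cells were grown with LIF and with 1 μg/ml Dox, which by design turns the copy on, and Dox was left out of the −Dox cultures. The same clones kept on Dox (Chek1_R +Dox and Ppp2r1b_R +Dox, 3 arrays each) served to show what differed between them in the presence of Dox. The labels place the stock cultures on mouse embryonic fibroblasts, and the methods place the sampled cultures on no feeder cells. They do not say whether replicate arrays are separate cultures or clones. The p-values measure the spread between arrays of a condition, pooled over all 30 arrays, and this spread may be technical. A difference between clones cannot be told apart from a difference between lentiviral insertions or isolates.

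Chek1 encodes CHK1, the kinase that halts the cell cycle and protects replication forks when ATR senses damaged or stalled DNA. Ppp2r1b encodes the β isoform of the scaffold subunit of protein phosphatase 2A (PP2A), on which a catalytic and a regulatory subunit assemble, and its close relative Ppp2r1a encodes the more abundant α scaffold. ESCs in LIF hold a naive state carried by factors such as Klf4, Esrrb, Tbx3 and Zfp42 (Rex1). Cells that leave this state pass through an epiblast stage marked by Fgf5, and cells that go on toward mesendoderm switch on primitive streak genes such as T (Brachyury), Mixl1, Eomes and Gsc, which Wnt, Nodal and FGF signals induce.

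The hairpin sequences are shown since they define the clones. The target of the Chek1 hairpin is left out of the rescue copy, which lacks the 3′ UTR, and that of the Ppp2r1b hairpin lies in the coding region, where the rescue copy carries silent changes. No base stands in capitals, since no part of either sequence was singled out.
Chek1 shRNA: cccatgtagtagtatcacttt
Ppp2r1b shRNA: gctccgtctcaacagtattaa

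Signals were normalized together over the 30 arrays and are given as log2 levels, each the log2 of a normalized signal for the brightest probe of a gene. A difference is the mean log2 level on the arrays labelled Chek1_R minus that on the arrays labelled Ppp2r1b_R, and a gene was called at a limma adjusted p under 0.05 together with at least 1.5-fold. Chek1 lay at 6.08, 6.24 and 5.72 on the arrays labelled Chek1_R −Dox and at 7.30, 6.46 and 7.09 on those labelled Ppp2r1b_R −Dox. All 3 of the former lay below the latter, as was so in one direction or the other for 53.1% of all genes tested (27.4% with those labelled Chek1_R above and 25.7% with it below), a difference of −0.94 (SE 0.16, adjusted p 3.3e-05). With Dox, Chek1 lay at 5.32, 5.20 and 5.40 against 7.05, 6.97 and 7.25 and was detected on 0 of 3 arrays labelled Chek1_R, at least 2.84-fold lower (adjusted p 8.54e-09). Such a bound sets the detected arrays against the lowest signal detected on each other array. Chek1 was thus lower on the arrays labelled Chek1_R both without and with Dox. Within these arrays its level without Dox, where all 3 detected it, exceeded that with Dox by a factor of at least 1.35. The labels do not predict this order. On the same arrays T and Fgf5 were higher without Dox than with it, by 4.44 and 2.42. The paper reports that both rose after Dox was removed. Whether labels were exchanged was not tested. The conditions are therefore named by their labels. A further Chek1 probe gave −0.58 without Dox, short of the fold limit, and the positions of the probes were not used here, so whether they read the rescue copy was not tested. The Chek1 call without Dox was lost with the t-test named in the methods and with an offset of 200.

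Ppp2r1b was higher on the arrays labelled Chek1_R, at 7.43, 7.08 and 7.25 against 6.16, 6.49 and 6.21 without Dox (0.97, SE 0.15, adjusted p 1.33e-05). The groups did not overlap. With Dox the groups were separate as well, as for 44.9% of all genes (23.5% higher and 21.5% lower), and the difference was 1.03 (adjusted p 1.31e-05), and the change of the difference on Dox withdrawal was −0.06 (SE 0.21, adjusted p 0.887). Within Ppp2r1b_R the level was not higher with Dox, the change on Dox withdrawal being 0.20 (SE 0.15, adjusted p 0.365), so this probe shows no added Ppp2r1b signal with Dox. The Ppp2r1b call without Dox was lost at an offset of 200. Ppp2r1a lay at 11.11, 11.08 and 11.18 against 10.56, 10.77 and 10.64, a difference of 0.47 that stayed under 1.5-fold, and it had the same size with Dox (0.47).

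**Figure D1:**
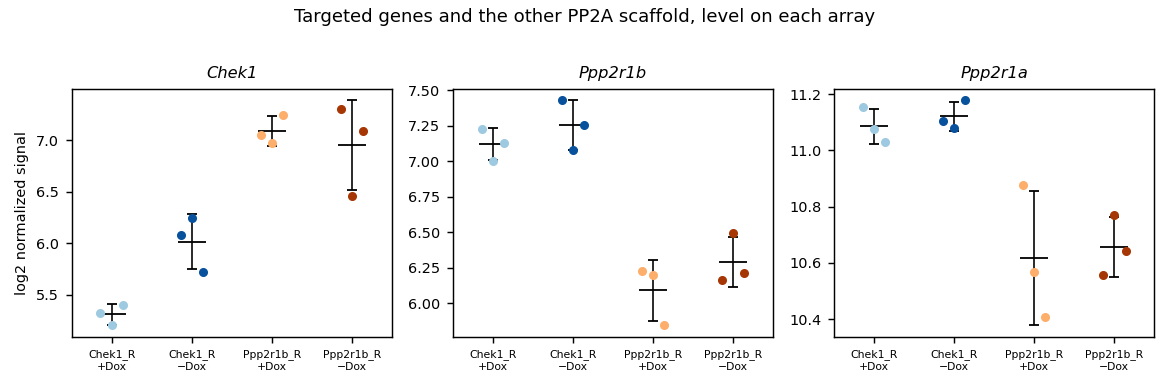
Log2 normalized signal (y axis, its own range in each panel) of Chek1, Ppp2r1b and Ppp2r1a on the 12 arrays of both clones with and without Dox. Points are arrays, bars the mean and SD of 3. Chek1 was lowest on the arrays labelled Chek1_R +Dox, all between 5.20 and 5.40, and Ppp2r1b was lower on every Ppp2r1b_R array than on every array labelled Chek1_R.

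The 12 arrays expressed ESC genes. All 10 ESC markers were detected on each of them, and the most abundant was Dppa5. Their summed signal was 77396 to 81062 on the arrays labelled Chek1_R −Dox and 64581 to 68177 on those labelled Ppp2r1b_R −Dox, with no overlap. Of 12 fibroblast markers, 5 were detected on each array labelled Chek1_R −Dox and 5 or 6 on each Ppp2r1b_R −Dox array, with summed signals of 1175 to 1280 and 1131 to 1231. The defining collagen gene Col1a2 and the markers Postn, Lum, Prrx1, Fap and Meox2 were detected on none of the 12, whereas Col1a1, Thy1, Twist2 and Cd248 were detected on all 12. Dcn was detected on 3 of 3 arrays of each clone without Dox and on 0 of 3 with it. Col1a1 had mean levels of 7.66 and 7.31 without Dox and 6.60 and 6.29 with it, on the arrays labelled Chek1_R and Ppp2r1b_R. Of 7 fibroblast markers tested, 4 were called up on Dox withdrawal on the arrays labelled Chek1_R and 2 in Ppp2r1b_R, as were 4.68% and 2.77% of all genes. Called down were 1 on the arrays labelled Chek1_R, Thy1 (−0.81), and 0 in Ppp2r1b_R, as were 5.24% and 2.20% of all genes. Their part in the other changes on Dox withdrawal was not tested. Thy1, which ESCs can also express, was the 1 fibroblast marker called between the clones without Dox (−0.59). In such bulk samples, fewer cells that express a gene and less RNA per cell cannot be told apart.

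The arrays of Ppp2r1b_R were less bright at the top of the range. The 99th percentile of the deposited signal was 9158 to 14237 on the arrays labelled Chek1_R −Dox and 5981 to 8121 on those labelled Ppp2r1b_R −Dox, while the lowest detected signal was 29.8 to 48.5 and 27.8 to 35.5, and 12763 to 12864 and 12578 to 12728 probes were detected. With Dox the corresponding percentiles were 9911 to 10703 and 6499 to 8792. Making the arrays' distributions equal by quantiles removes this gap, and its part in the results was not tested beyond other scalings. When each array was instead scaled to a common median (called one median from here on), the median of all genes rose to 0.225 on the side of the arrays labelled Chek1_R, against 0.015, and differences under that scaling are read relative to it. The shift was uneven, however. Without Dox the median moved from 0.03 to 0.55 for cytosolic ribosomal proteins and from 0.09 to 0.57 for the respiratory chain. For endoderm genes it moved only from −0.34 to −0.20. The value of 0.225 is therefore a rough guide, and exceeding it is not by itself a result about a list.

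Without Dox, 2081 of 15151 tested probes (13.7%) were called between the clones. The level on the arrays labelled Chek1_R was higher for 968 (6.39%) and lower for 1113 (7.35%). With Dox there were 1135 (7.49%), 449 higher (2.96%) and 686 lower (4.53%). Scaled to one median, the split without Dox was 3076 higher to 507 lower, and that with Dox 1476 to 396. The change of the difference on Dox withdrawal, which is the interaction of clone and Dox, was called for 969 probes (6.40%), 444 upward (2.93%) and 525 downward (3.47%), or 557 and 391 with one median. By gene it was called for 6.65%. Replicate arrays correlated across probes with r of 0.995 to 0.996 on those labelled Chek1_R −Dox and 0.992 in Ppp2r1b_R −Dox.

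Some clone differences were already there with Dox, where 561 probes (27.0% of those called without Dox) were called the same way. Of the 968 probes called higher without Dox, 850 were also higher with Dox but only 212 were called so, with medians of 0.73 without and 0.39 with Dox. Of the 1113 called lower, 1026 were lower with Dox and 349 were called, with medians of −0.78 and −0.44. By gene, 5855 of all 11177 tested were higher with Dox, called or not. Probes called opposite ways numbered 27, and 24 of these were higher without Dox and lower with it. Among the 12 named genes that stood highest on the arrays labelled Chek1_R −Dox, 2 were called with Dox, while among the 12 that stood lowest 10 were. With Dox 2.61% of all genes were called higher and 4.88% lower. Mixl1, Mesp1 and Lhx1, among the highest, were detected in neither clone with Dox, so they could not be compared there. The 2 counts are therefore not on an equal footing.

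**Figure D2:**
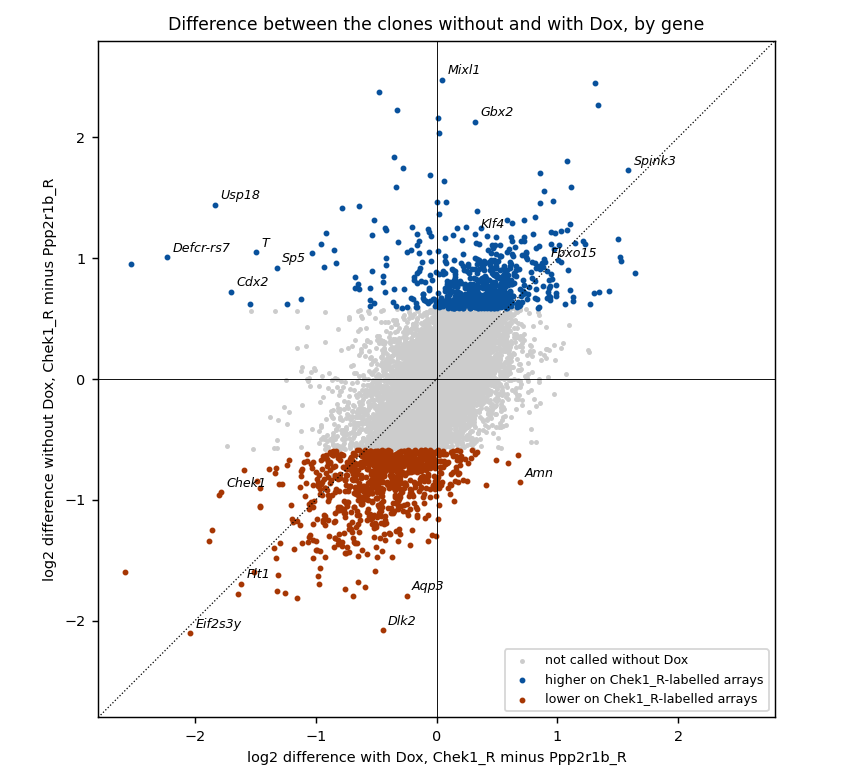
Log2 difference between the arrays labelled Chek1_R and Ppp2r1b_R without Dox (y axis) against that with Dox (x axis) for 11177 genes. Blue and brown points are the 669 genes called higher and the 877 called lower without Dox, and the dotted line marks equal differences. Eif2s3y and Spink3 lie near the line, Gbx2, Dlk2 and Aqp3 differed with Dox by 0.32, −0.45 and −0.25, Mixl1 was detected in neither clone with Dox, and Usp18, Defcr-rs7, T and Cdx2 were lower with Dox and higher without it.

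By gene, the arrays labelled Chek1_R −Dox were above those of Ppp2r1b_R −Dox for 669 called genes (5.99%) and below them for 877 (7.85%), and the gene lists are read against these shares. The shares of all genes were 2.61% higher and 4.88% lower with Dox, and 3.05% upward and 3.60% downward for the interaction. With one median 20.65% of all genes were higher and 3.60% lower without Dox, at a median of 0.225, and counts under that scaling are read against those. Since that scaling moved the lists unevenly, a share above 20.65% there is not by itself a result about a list. Among the lists, 10 of 16 tested primitive streak genes, 9 of 14 naive pluripotency genes, 4 of 6 cryptdin-related defensins and 8 of 20 Hox genes were higher. Lists with lower members included endoderm and extraembryonic endoderm genes (7 of 17), glycolysis and hypoxia genes (8 of 25) and imprinted genes (5 of 19). The lists of cytosolic ribosomal proteins (3 of 56 higher) and of the respiratory chain (1 of 73 higher) had few called members.

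**Figure D3:**
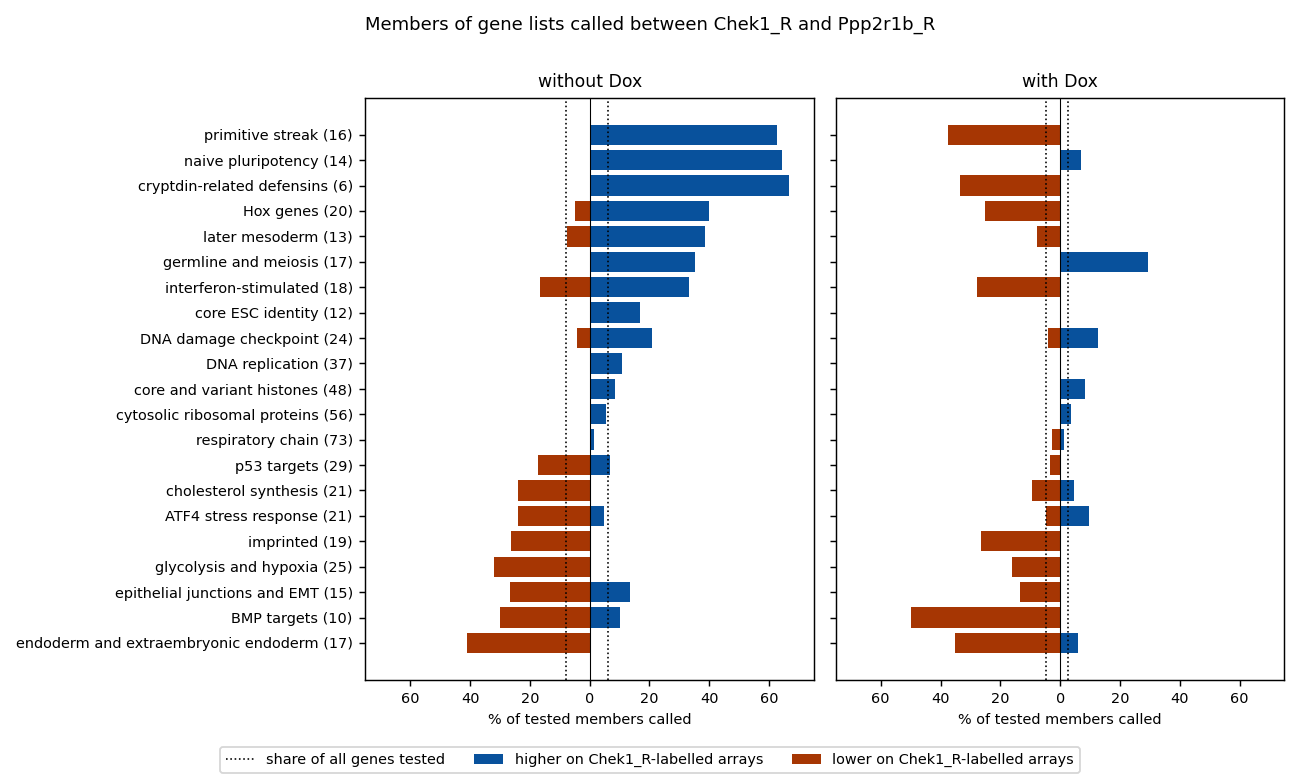
Share of the tested members of each gene list (number in parentheses) called lower (left, brown) or higher (right, blue) on the arrays labelled Chek1_R, without and with Dox, in percent. Dotted lines mark the shares among all 11177 genes. The bar of the primitive streak list points to higher without Dox and to lower with Dox, whereas that of the endoderm list points to lower in both.

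Naive pluripotency genes were higher on the arrays labelled Chek1_R without Dox: 9 of 14 tested were called higher and 0 lower, with a median difference of 0.68 against 0.01 for all genes. Scaled to one median, 13 of 14 were called higher with a median of 1.07. That scaling also raised lists with few called members, such as the respiratory chain (0.57), so it adds no separate support. Gbx2, a homeobox gene of the naive state and of the early neural plate, lay at 10.99, 11.13 and 11.18 against 8.85, 9.08 and 8.99 (2.13, SE 0.08, adjusted p 4.3e-15). No array of one group reached the other. Klf4, a reprogramming factor, lay at 9.74, 10.00 and 9.64 against 8.51, 8.47 and 8.79 (1.20, adjusted p 1.11e-08). Zfp42 (Rex1), whose loss marks exit from the naive state, lay at 11.38, 11.62 and 11.58 against 10.43, 10.56 and 10.23 (1.12, adjusted p 6.96e-08). Fbxo15 (0.97), the Akt co-activator Tcl1 (0.88), the T-box gene Tbx3 (0.79), the nuclear receptors Esrrb (0.71) and Nr5a2 (0.62) and Klf2 (0.65) made up the rest of those called. Further, dimmer probes of Tbx3 (0.33) and Nr5a2 (0.08) were not called. The 5 not called were Dppa3 (0.51), Nanog (0.50), Klf5 (0.17), Dppa5 (0.00) and Pecam1 (−0.15). Dppa5 stood near the top of the signal range at about the same level on all 12 arrays.

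The changes on Dox withdrawal were larger in Ppp2r1b_R for this list. On Dox withdrawal 5 of the 14 naive genes fell and 0 rose in Ppp2r1b_R (2.20% and 2.77% of all genes), with a median change of −0.52, and 1 fell and 1 rose on the arrays labelled Chek1_R (5.24% and 4.68%), with a median of −0.06. Gbx2 fell by 1.08 in Ppp2r1b_R and rose by 0.73 on the arrays labelled Chek1_R, a difference in change of 1.81 (SE 0.12, adjusted p 7.04e-11). Zfp42 fell by 0.80 in Ppp2r1b_R, and its change was 0.01 on the arrays labelled Chek1_R (interaction 0.80, adjusted p 0.00224). Over the list the interaction was called upward for 5 genes, Gbx2, Klf4, Zfp42, Tcl1 and Tbx3, and downward for Pecam1, against 3.05% and 3.60% of all genes. A further, dimmer probe stayed under the fold limit for Tbx3, where it went the other way (−0.14), for Pecam1 (−0.36) and for Klf4 (0.54). With Dox only Fbxo15 was called between the clones (0.90), against 2.61% of all genes called higher. Called or not, 13 of the 14 were higher on the arrays labelled Chek1_R with Dox, at a median of 0.26. So were 5855 of all 11177 genes. For 10 of the 14 the groups were separate in that direction, against 23.5% of all genes. With one median 8 of the 14 were called higher with Dox (57.14%, against 9.5% of all genes).

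Of the 12 core ESC genes tested, 2 were called higher and 0 lower. Pou5f1 (Oct4) lay at 11.93, 11.82 and 11.87 against 11.15, 11.45 and 11.16 (0.62, adjusted p 3.3e-06), with separate groups, but a further probe of the gene gave 0.52 and was not called, and neither was the first without Ppp2r1b_R −Dox replicate 1 or 3. Zfp296, a zinc finger partner of Oct4, was the other (0.79, adjusted p 4.01e-09). Sox2 (0.54) and Utf1 (0.37) were not called, and Lin28 differed by 0.04 (SE 0.14). A further, dimmer probe of Sox2 went the other way (−0.47, adjusted p 0.019). Scaled to one median 8 of the 12 were called higher (66.67%, against 20.65% of all genes).

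On the arrays labelled Chek1_R, primitive streak genes stood higher without Dox and lower with Dox. Of 16 tested, 10 were called higher and 0 lower without Dox (median difference 0.91), and 0 higher and 6 lower with Dox, against 4.88% of all genes called lower. The interaction was called upward for 14 of 16 (3.05% of all genes), with a fitted median of 1.96. Some members were not detected in one or more conditions, and over the 11 detected in all 4 conditions 9 were called upward, with a median of 1.90, and their median difference with Dox was −0.92. With the 5 genes undetected in Ppp2r1b_R −Dox at their lower bound, the median difference without Dox was 0.82. For 9 genes the sign of the difference turned between +Dox and −Dox. The list rose in both clones on Dox withdrawal, with 14 genes called up on the arrays labelled Chek1_R (median 2.30, 4.68% of all genes) and 7 in Ppp2r1b_R (median 0.56, 2.77% of all genes). With one median 13 were called higher without Dox, and 11 with the arrays scaled to the median of the tested probes.

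T (Brachyury), the T-box factor that defines the streak and early mesoderm, lay at 10.94, 10.79 and 10.84 on the arrays labelled Chek1_R −Dox and at 9.78, 9.95 and 9.69 on those of Ppp2r1b_R −Dox (1.05, SE 0.11, adjusted p 3.52e-08). With Dox it lay at 6.60, 6.47 and 6.17 and 7.98, 7.88 and 7.85 (−1.49, SE 0.11, adjusted p 3.15e-10). The groups were separate in each case and in opposite order, and the difference changed by 2.54 (SE 0.15, adjusted p 3.17e-11). Cdx2, a caudal homeobox factor of the posterior embryo and trophoblast, followed the same course, at 9.94, 9.86 and 9.92 against 9.15, 9.29 and 9.12 without Dox (0.72) and 5.56, 6.18 and 6.07 against 7.57, 7.52 and 7.83 with it (−1.70). Sp5, a Wnt target that encodes a zinc finger factor, was 0.92 higher without Dox and fell to the other side with it (−1.32). Its 3 arrays without Dox lay at 12.30, 12.42 and 12.38 against 11.47, 11.36 and 11.49, with no overlap.

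Mixl1, Mesp1, Lhx1 and Eomes were detected on 3 of 3 arrays labelled Chek1_R −Dox and on 0 of 3 in each of the other conditions of the 2 clones. Mixl1, a homeobox factor of the nascent mesendoderm, lay at 7.45, 7.39 and 7.53 and was at least 3.58-fold higher than in Ppp2r1b_R −Dox, where it lay at 5.20, 5.00 and 4.73 (adjusted p 2.18e-14). A further, dimmer probe of Mixl1 was also called higher. Mesp1, which directs cardiac and other anterior mesoderm, was at least 3.39-fold higher (adjusted p 5.54e-13). The bounds were 3.3-fold for Lhx1, a LIM homeobox factor, and 2.04-fold for Eomes, a T-box factor of streak and trophoblast, whose call was lost without background correction. With Dox none of the 4 was detected in either clone, so no comparison could be made there.

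Evx1, a homeobox factor of the posterior streak, lay at 9.48, 9.50 and 9.50 against 7.28, 7.29 and 7.22 (2.23, SE 0.14, adjusted p 1.38e-11). Gsc, the organizer gene Goosecoid, lay at 8.41, 8.36 and 8.24 against 6.38, 6.60 and 6.80 (1.75, adjusted p 6.26e-12). Neither pair of groups overlapped. Gsc did not change by the threshold on Dox withdrawal in Ppp2r1b_R (−0.20), whereas it rose by 1.82 on the arrays labelled Chek1_R. Among the signalling genes of the list, Fgf8 was 0.56 higher without Dox, just under the fold limit, and −1.34 with Dox, where it was called, and its interaction was 1.90 (SE 0.10, adjusted p 4.05e-12). Wnt3 behaved alike, with 0.55 and −0.92 (interaction 1.47). Wnt3a was called higher without Dox (at least 1.44-fold), and Fgf17 was not (0.31). Wnt8a (−0.50) and Tbx6 (−0.54), a T-box factor of the presomitic mesoderm, were the 2 streak genes whose arrays labelled Chek1_R all lay below those of Ppp2r1b_R, neither at 1.5-fold. Cdx1 differed by 0.17 (SE 0.16).

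**Figure D4:**
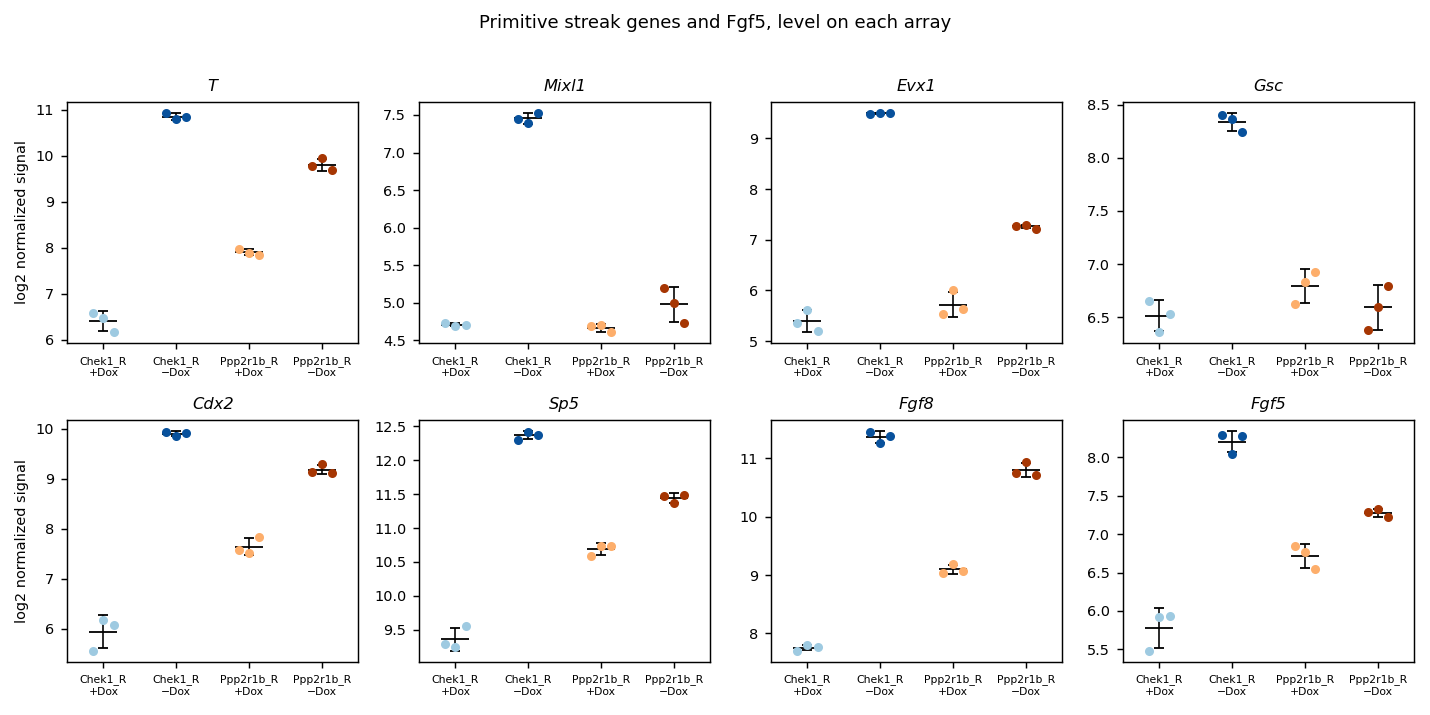
Log2 normalized signal (y axis, its own range in each panel) of 7 primitive streak genes and the epiblast gene Fgf5 on each of 12 arrays, with the mean and SD of 3. T, Cdx2, Sp5, Fgf8 and Fgf5 were lowest on the arrays labelled Chek1_R +Dox and highest on those labelled Chek1_R −Dox, with both Ppp2r1b_R conditions between. Mixl1 and Gsc stood out on the arrays labelled Chek1_R −Dox alone.

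The epiblast list had 2 of 9 genes called higher. Fgf5 lay at 8.29, 8.04 and 8.27 against 7.29, 7.32 and 7.22 without Dox (0.93, adjusted p 4.27e-06) and at 5.48, 5.93 and 5.94 against 6.84, 6.76 and 6.54 with Dox (−0.93, adjusted p 8.92e-06). The order of the clones was reversed, with an interaction of 1.86 (SE 0.19, adjusted p 2.14e-07), and the call without Dox was lost without background correction. Lef1, a transcriptional partner of β-catenin, was detected only on the arrays labelled Chek1_R −Dox (at least 1.16-fold). Its call was lost with an offset of 50 or 200 and with the arrays scaled to the median of the tested probes. Otx2 (0.13), Dnmt3b (0.29), Pou3f1 (−0.46), Zic2 (0.26), Sall2 (−0.20), Pim2 (0.34) and Cldn6 (−0.56) were not called.

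Of 13 later mesoderm genes, 5 were higher and 1 lower. Msx1, a homeobox target of BMP signals, lay at 8.52, 8.12 and 8.22 against 6.90, 6.52 and 6.39 (1.69, adjusted p 4.75e-07), and Isl1, a LIM homeobox factor of cardiac progenitors, at 6.95, 6.86 and 6.78 against 5.07, 5.48 and 5.64 (1.47, adjusted p 1.02e-08). Both sets were separate. Tcf15, a basic helix-loop-helix factor of the somite, was 1.11 higher without Dox and 0.46 with it, and fell on Dox withdrawal in Ppp2r1b_R (−1.03), and Etsrp71 (Etv2), an ETS factor of blood and vessel progenitors, was 1.01 higher.

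Hox genes, which pattern the body axis, were called higher for 8 of 20 and lower for 1 (median difference 0.45), while with Dox 0 were higher and 5 lower, against 2.61% and 4.88% of all genes. The interaction was upward for 10 and downward for 0, against 3.05% and 3.60% of all genes, and for 4 and 0 of the 9 detected in all 4 conditions. Hoxa7 lay at 7.82, 7.61 and 7.70 against 6.59, 6.19 and 6.24 (1.37, adjusted p 9.29e-08). Hoxc6 lay at 8.51, 8.58 and 8.52 against 7.20, 7.46 and 7.59 without Dox (1.12, adjusted p 2.24e-05), and with Dox it was at least 1.8-fold lower on the arrays labelled Chek1_R, none of which detected it. Both genes had separate groups without Dox. Hoxc9 (0.96) and Hoxd4 (0.88) were also called, Hoxd4 not without background correction.

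The signalling lists were mixed. Of 13 Wnt feedback and target genes, 3 were higher without Dox, 4 lower with Dox and 5 called upward for the interaction. Axin2, the feedback scaffold of the pathway, lay at 9.47, 9.41 and 9.41 against 8.67, 8.66 and 8.73 without Dox (0.75) and at 7.66, 7.60 and 7.67 against 8.50, 8.11 and 8.25 with it (−0.65), again in reversed order (interaction 1.39, adjusted p 9.73e-10). In the Nodal and activin list, 1 of 14 was higher and 3 were lower: the activin antagonist Fst lay at 8.75, 8.46 and 8.52 against 7.16, 7.27 and 7.55 (1.25), while Lefty1, a Nodal inhibitor and target, lay at 11.06, 10.94 and 10.92 against 11.86, 11.84 and 11.96 (−0.92). The activin receptor Acvr2b (−0.66) and the activin subunit Inhba (−0.61) were lower. These 3 lower calls were lost with one median, where the list's median turned from −0.16 to 0.17, below that of all genes. Of 10 BMP genes, 3 were lower and 1, Msx1 (1.69), was higher without Dox, 5 were lower and 0 higher with Dox, and the interaction was upward for 4 and downward for 2. The ligand Bmp7 lay at 7.35, 7.22 and 7.20 against 8.70, 8.76 and 8.67 (−1.45, adjusted p 5.29e-11), separate on all arrays, and Id2 (−0.91) and the antagonist Chrd (−0.82) were lower too. With one median Id2 and Chrd lost their calls, which left 1 higher and 1 lower. Of 17 FGF feedback genes, 3 were higher and 2 lower, with a median of −0.03. Those higher were the ETS factors Etv5 (0.83) and Etv4 (0.76) and the early response factor Egr1 (0.73), which is named after its value was seen, and those lower were the receptor Fgfr1 (−0.86) and Ier3 (−0.98). A further probe of Fgfr1 gave −0.06, and one median ended the call of Ier3.

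The order of the clones also turned for Usp18, which removes the ubiquitin-like ISG15 from proteins, and Defcr-rs7, a cryptdin-related defensin. Usp18 lay at 10.23, 10.37 and 10.32 against 8.88, 8.88 and 8.84 without Dox (1.44, SE 0.13, adjusted p 2.59e-09). With Dox it lay at 5.13, 4.89 and 5.21, detected on 0 of 3 arrays, against 7.05, 6.63 and 7.05, at least 2.51-fold lower. The groups were separate in both, in opposite order, although a further, dimmer probe was not called with Dox (adjusted p 0.599). Defcr-rs7 lay at 10.69, 10.34 and 10.53 against 9.53, 9.68 and 9.33 without Dox (1.01) and with Dox it was lower by a factor of at least 3.73. AY761185 (1.05), Defcr-rs10 (1.00) and Defcr26 (at least 1.61-fold) were the other defensins called. Defensin genes are near-identical copies whose probes may read one another, and the calls of these 3 were lost without background correction.

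Of 18 interferon-stimulated genes, 6 were higher and 3 lower without Dox, and 0 higher and 5 lower with Dox. Ifit3, which binds foreign RNA complexes, lay at 7.91, 7.75 and 7.81 against 6.53, 6.77 and 6.59 (1.19, adjusted p 8.66e-06) and rose on Dox withdrawal by 2.31 on the arrays labelled Chek1_R and by 0.59 in Ppp2r1b_R. The groups without Dox did not overlap. Ifi35 was 0.75 higher, a call lost without the array labelled Chek1_R −Dox replicate 1. Scaled to one median, 7 were higher and 0 lower. The interferon-responsive nucleotide kinase Tyki (Cmpk2), from outside this list, lay at 7.21, 7.29 and 7.28 against 5.55, 5.95 and 5.52 (1.59, adjusted p 7.69e-10).

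Further genes at the upper extreme were Klhl6, a kelch family adaptor known from B cells, at 9.10, 9.16 and 9.19 against 6.52, 6.85 and 6.95 (2.38, SE 0.11, adjusted p 2.13e-13), and Vstm2b, at 8.71, 8.90 and 8.84 against 6.96, 6.77 and 7.22 (1.84, adjusted p 1.02e-08). Their groups were separate. Vstm2b was called for the interaction (2.19), and Klhl6 was not detected on the arrays labelled Chek1_R +Dox. Enox1 was 1.71 higher without and 0.86 with Dox. Spink3, a serine protease inhibitor, differed between the clones whatever the Dox, at 9.05, 9.39 and 9.22 against 7.36, 7.57 and 7.55 without Dox (1.73) and by 1.59 with it (interaction 0.14, SE 0.15, adjusted p 0.606).

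Among the genes lower on the arrays labelled Chek1_R, the first was Eif2s3y, a subunit of translation initiation factor eIF2 on the Y chromosome, at 8.59, 8.97 and 8.69 against 10.89, 10.62 and 11.05 (−2.10, SE 0.14, adjusted p 3.96e-11). With Dox the difference was −2.04, at 8.85, 8.75 and 8.92 against 10.70, 10.85 and 11.08. The clones were as far apart with Dox as without it. The RNA helicase gene Ddx3y (−0.74) and the demethylase gene Uty (−0.67) were lower as well, and Jarid1d and Xist were not tested. All 4 tested genes of the Y chromosome were called lower without Dox, the other being Rbmy1a1 (−0.60), with a median of −0.71, and with Dox 1 of the 4 was called, Eif2s3y, Rbmy1a1 differing by −0.09. Without Dox the medians of the 19 autosomes lay between −0.03 and 0.05 and that of chromosome X at −0.02. Ddx3y and Uty lost the call with one median, and Ddx3y did so with scaling to the tested probes. Chromosomes were assigned by symbol for 10652 of 11177 genes.

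Genes that differed with Dox as well included Flt1, a receptor for VEGF, at 9.01, 8.87 and 8.89 against 10.61, 10.64 and 10.60 without Dox (−1.69, adjusted p 5.81e-15) and −1.62 with it. The sulfotransferase gene Chst1 lay at 8.15, 8.37 and 8.41 against 10.16, 10.02 and 10.09 (−1.78, and −1.64 with Dox). Both were separated by clone on every array. Neither was called for the interaction (−0.08 and −0.14). The zinc transporter gene Slc39a8 (−1.81) and the galactosyltransferase gene B4galt4 (−1.63) were called with Dox as well, and B4galt4 lost its call without Dox when the background was not corrected. For Slc39a8 the interaction was called too (−0.65, adjusted p 0.00573).

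Others separated mainly on Dox withdrawal. Aqp3, a channel for water and glycerol, lay at 7.54, 7.51 and 7.48 against 9.37, 9.26 and 9.27 without Dox (−1.79, SE 0.06, adjusted p 5.33e-16) but at 8.78, 8.77 and 8.78 against 9.02, 9.04 and 9.02 with it. The gap of −0.25 with Dox was under 1.5-fold, and it changed by −1.54 (adjusted p 8.93e-12). Dlk2, a Delta-like membrane protein, lay at 5.97, 5.67 and 5.65 against 7.78, 8.03 and 7.71 (−2.08, adjusted p 4.56e-11; interaction −1.63). Kcnc4, a potassium channel, was at least 2.37-fold lower without Dox and differed by −0.01 with Dox. The kinase gene Aatk (−1.80, interaction −1.10), the lipoprotein lipase gene Lpl (−1.68, interaction −1.03) and Tbc1d8 (−1.74, interaction −0.98) were lower in both, with the larger gap without Dox. Galnt3, which starts O-linked glycans, was undetected on the arrays labelled Chek1_R −Dox and at least 2.22-fold lower there, having risen by 1.23 in Ppp2r1b_R. It was also called lower with Dox (fitted difference −0.59, limma adjusted p 0.0196). Amn (−0.85 without and 0.69 with Dox), Icam1 (−0.52 and 0.78) and the phosphatase gene Dusp8 (−0.52 and 0.82) reversed their order, Icam1 and Dusp8 short of the fold limit without Dox.

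**Figure D5:**
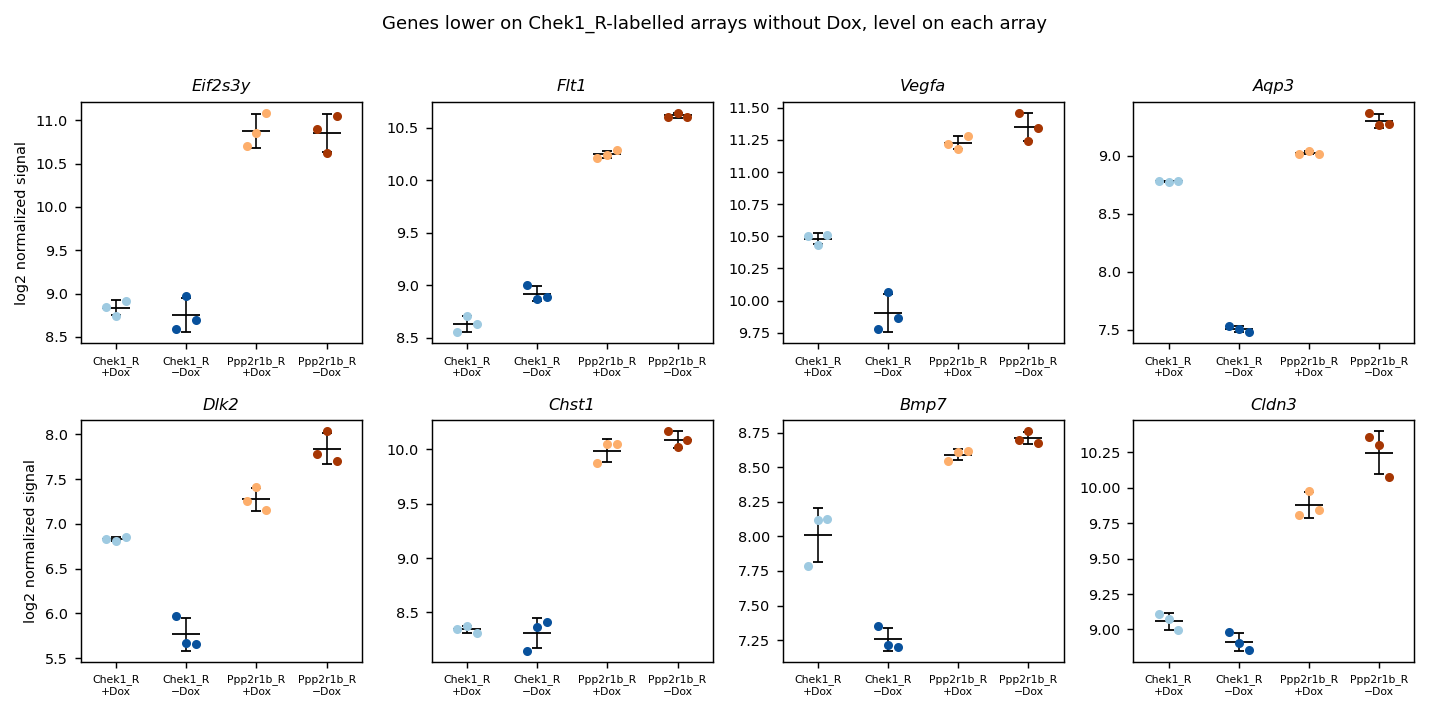
Log2 normalized signal (y axis, its own range in each panel) on each of 12 arrays, with the mean and SD of 3, for 8 genes lower on the arrays labelled Chek1_R without Dox. Eif2s3y and Flt1 differed as much with Dox, by −2.04 and −1.62, whereas Aqp3 and Dlk2 fell on Dox withdrawal on the arrays labelled Chek1_R and differed by −0.25 and −0.45 with Dox.

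Endoderm and extraembryonic endoderm genes were called lower for 7 of 17 and higher for 0 (median −0.34), and with Dox for 6 and 1. The list kept a negative median with one median (−0.20), where 4 were lower and 1 higher. Several of those called encode basement membrane proteins. Lamb1-1 (laminin β1) lay at 6.99, 7.38 and 6.89 against 8.23, 8.18 and 8.40 (−1.18, adjusted p 9.12e-06), and the type IV collagens Col4a2 and Col4a1 were −0.94 and −0.91. The arrays were separate for all 3, and the collagens lost the call with one median. Foxa1, a pioneer factor of endoderm, was detected on 2 of 3 arrays of Ppp2r1b_R and on 0 of 3 labelled Chek1_R, at 6.92, 6.97 and 5.53 against 4.78, 5.00 and 4.76 (at least 1.88-fold lower), and its call failed the t-test named in the methods. Trophoblast genes split into 3 higher and 3 lower of 13, with Eomes and Cdx2 above, and the keratin gene Krt7 (−1.11) and Gata3 (−0.80) below.

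Of 25 glycolysis and hypoxia genes, 8 were lower and 0 higher, with a median of −0.25 that became 0.08 with one median, below that of all genes, where 7 were lower and 3 higher. Vegfa, the growth factor that binds Flt1, lay at 9.78, 10.07 and 9.86 against 11.46, 11.24 and 11.34 (−1.44, SE 0.09, adjusted p 5.47e-12), and its difference with Dox was −0.75 (interaction −0.70, adjusted p 0.000311). The groups did not overlap, and a further probe gave −1.30. The collagen prolyl hydroxylase gene P4ha2 lay at 8.54, 8.38 and 8.48 against 9.73, 9.71 and 9.59 (−1.21, adjusted p 9.95e-12). The peptide hormone gene Adm (−1.22) and the carbonic anhydrase gene Car12 (at least 1.99-fold) were lower too.

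Imprinted genes were lower for 5 of 19 and higher for 0 both without and with Dox, with a median of −0.40 without Dox. Dlk1, a paternally expressed Delta-like gene, lay at 7.00, 7.04 and 7.32 against 8.09, 8.10 and 8.23 (−1.02, and −1.04 with Dox), H19 at 6.00, 6.10 and 6.18 against 6.86, 6.98 and 7.02 (−0.86), Mest differed by −0.78 and Grb10 by −0.73. None of the 4 was called for the interaction. With one median 2 were lower, and Mest and Grb10 lost their calls. A further probe of Mest gave −0.15 and was not called.

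Cholesterol synthesis genes were lower for 5 of 21, among them Sqle (−0.79), Idi1 (−0.74) and Cyp51 (−0.71), while with one median 4 were higher (19.05%, against 20.65% of all genes) and 1 lower. The list's median was −0.16, and 0.18 with one median, below that of all genes (0.225). Sqle, Idi1 and Cyp51 lost their calls with one median. Sqle and Cyp51 also did so with the arrays scaled to the median of the tested probes, where 2 of the list were lower. Idi1 also lost its call when any of 4 arrays was left out. Of 21 genes of the ATF4 stress response, 5 were lower and 1 higher, with a median of 0.17, and with one median 9 were higher (42.86%, against 20.65% of all genes) and 2 lower, with a median of 0.45 against 0.225 for all genes. Cebpb lay at 8.93, 8.84 and 8.95 against 9.83, 10.01 and 9.92 (−1.01, adjusted p 1.05e-12), and Ddit3 (CHOP) was −0.70 without Dox and 0.59 with it (interaction −1.29, adjusted p 3.03e-05), a call without Dox that one median ended. The amino acid transporter gene Slc3a2 (−0.95) had 1 Ppp2r1b_R array at 7.51 and 1 labelled Chek1_R at 7.50, so that the groups barely parted, and its call failed the t-test named in the methods. In the list of epithelial junctions and mesenchymal transition, 4 of 15 were lower and 2 higher. The claudin Cldn3 lay at 8.98, 8.90 and 8.86 against 10.36, 10.30 and 10.07 (−1.33, adjusted p 9.72e-13) and the P-cadherin gene Cdh3 was −0.84, while Zeb1, a repressor of epithelial genes, lay at 7.69, 7.60 and 7.65 against 6.58, 6.16 and 6.67 (1.17) and Vim (vimentin) was 0.87. The list's median was −0.41, and 0.07 with one median, below the 0.225 of all genes, where 2 were higher (13.33%, against 20.65% of all genes) and 1 lower. Cdh3 lost its call there, and a further, dimmer probe of it gave −0.41 and was not called.

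Genes of the pathways in which CHK1 and PP2A act were examined as lists. Of 24 DNA damage checkpoint genes, 5 were higher and 1, Chek1 itself, was lower, with a median of 0.17, and 11 were higher and 1 lower with one median, where 20.65% of all genes were higher. Chek2, the kinase downstream of ATM, lay at 8.85, 8.74 and 8.75 against 7.63, 7.54 and 7.88 (1.10, adjusted p 5.84e-09) and was 0.85 higher with Dox, although a further probe gave 0.32 without Dox and was not called. Rad1, a subunit of the checkpoint clamp, lay at 9.23, 9.15 and 9.20 against 8.12, 8.03 and 8.33 (1.04, adjusted p 2.67e-09; interaction 0.82), and Rpa2, which coats single-stranded DNA, was 0.79, with a further probe at 0.16 (adjusted p 0.31). The arrays of the clones did not overlap for Chek2 or Rad1. Of 19 PP2A genes tested, 2 were higher, Ppp2r1b and the PP2A activator gene Ppp2r4 (0.59), and 0 lower, and 10 (52.63%) were higher with one median. Of 21 spindle checkpoint and mitosis genes, the securin gene Pttg1 (0.61) was higher and the kinase gene Ttk (−0.75) lower, and with one median 7 were higher (33.33%, against 20.65% of all genes) and 0 lower. DNA replication genes were higher for 4 of 37 and lower for 0, at a median of 0.28, with Mcm3 (0.64), Rfc5 (0.62), Ccne1 (0.61) and Rrm2 (0.59) just past the fold limit. With one median 22 (59.46%) were higher.

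Of 29 targets of p53, 2 were higher and 5 lower, with a median of −0.14. With one median 4 were higher (13.79%, against 20.65% of all genes) and 1 lower, at a median of 0.21 against 0.225 for all genes, and with the tested probes' median 2 and 2. Sfn (14-3-3σ) lay at 9.63, 9.38 and 9.73 against 8.57, 8.98 and 8.86 (0.78, adjusted p 2.5e-05) and the death receptor gene Fas at 6.91, 6.87 and 6.73 against 7.63, 7.56 and 7.89 (−0.86, adjusted p 6.23e-07). The arrays were separate in opposite directions. Sesn2 was 0.76, with a further probe at 0.28 that was not called, and Tap1 was −0.67. Of 19 apoptosis genes, only Bok was called (0.72), and with one median 4 were higher (21.05%), near the 20.65% of all genes. The DNA methylation and Polycomb list had the ubiquitin ligase subunits Pcgf5 (−0.95) and Rnf2 (−0.77) lower and Dnmt3l (0.77), a cofactor of the de novo methyltransferases, higher of 21 tested. With one median 7 were higher (33.33%, against 20.65% of all genes) and 0 lower, Pcgf5 and Rnf2 having lost their calls.

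Germline and meiosis genes were called higher for 6 of 17 and lower for 0 without Dox, and for 5 and 0 with Dox, with medians of 0.17 and 0.38. Dazl, an RNA-binding protein of germ cells, lay at 6.46, 6.41 and 6.36 against 5.53, 5.48 and 5.43 (at least 1.74-fold higher, adjusted p 4.02e-08, and 0.38 with Dox). Gm397, which the RefSeq table gives as a synonym of Zscan4c, a gene of the cleavage-stage embryo, lay at 9.22, 9.28 and 9.39 against 7.26, 6.98 and 6.86 (2.27, adjusted p 1.4e-15, and 1.34 with Dox). Both sets of arrays were separate. The remaining lists had few called members. The LIF and Stat3 list had 1 of 10 lower, Jak1 (−0.75), the neural list 1 of 5 higher, Nes (0.60), the Rhox list 1 of 7 lower, Rhox12 (at least 1.37-fold), and the core and variant histones 4 of 48 higher, led by Hist1h3f (at least 2.18-fold), and 18 (37.50%) were higher with one median. Histone genes are near-identical copies, and their probes may read one another. The ribosomal protein list had Rpl39l (at least 1.13-fold) among its 3 higher members, and the respiratory chain Ndufb10 (0.69), and with one median 24 (42.86%) and 35 (47.95%) members of these lists were higher, against 20.65% of all genes.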

How the data were processed

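The authors deposited, per array and probe, a signal intensity from Illumina mouse WG-8 v2 arrays and a detection p-value. The submitters' processing notes name lumi, with no version. Date-like cells had replaced 46 and 14 detection p-values on 2 arrays of other conditions, and were converted back or filled from the probe of nearest signal.

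Intensities of the 30 arrays were normalized with neqc (offset 16) in R 4.3.3 with limma 3.58.1. The fit took the 15151 of 25697 probes whose detection p fell below 0.05 on 3 or more arrays. One limma fit of 10 condition means gave each contrast, with Benjamini-Hochberg adjustment over all kept probes. The array number (3 per condition) limits the precision. The brightest probe stood for a gene (11177 genes). Named were the targets, the 12 extreme called genes in each direction with separate arrays (passing over 5 higher and 2 lower predicted symbols, Gm397 among them), the 6 largest interactions each way, and members of the gene lists. Members and lists were chosen with earlier results of these data known. The procedure was tested on simulated data. Alternatives were other background corrections, scalings, offsets, filters, array subsets, fold limits, the methods' t-test, a replicate block and leaving out each array. Scaling to the median of the tested probes was added after seeing the data. Aurka_R was not analysed here, and 2 of the named genes are not reported here.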

Additional observations from a re-analysis of the deposited data

Results flagged for a closer look

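The clone difference changed with Dox for 969 probes by the limma interaction test, and the genes below were singled out because this test of the difference itself passed for each of them, as it did for 6.65% of all genes. Values are log2 changes of the difference between the arrays labelled Chek1_R and Ppp2r1b_R on Dox withdrawal. Chek1, Mixl1, Mesp1, Lhx1, Eomes, Wnt3a, Usp18, Defcr-rs7, Klhl6, Tyki, Kcnc4 and Galnt3 were not detected on any array of at least 1 of the 4 conditions, so their fitted values rest in part on background signal and are neither sizes nor bounds of a change. Chek1 had a fitted value of 0.84. Among primitive streak genes the values were 2.54 for T, 2.43 for Mixl1, 2.43 for Cdx2, 2.56 for Evx1, 2.24 for Sp5, 2.14 for Mesp1, 2.03 for Gsc, 2.02 for Lhx1, 1.90 for Fgf8, 1.47 for Wnt3, 1.09 for Eomes, 0.86 for Fgf17, 0.82 for Wnt8a and 0.74 for Wnt3a. Further upward changes were 3.28 for Usp18, 3.24 for Defcr-rs7, 2.85 for Klhl6, 2.19 for Vstm2b, 1.92 for Tyki, 1.81 for Gbx2, 1.74 for Msx1 and 0.85 for Enox1. Downward changes were −1.63 for Dlk2, −1.54 for Aqp3, −1.54 for Amn, −1.35 for Dusp8, −1.30 for Icam1, −1.29 for Kcnc4, −1.13 for Galnt3, −1.10 for Aatk, −1.03 for Lpl, −0.98 for Tbc1d8 and −0.65 for Slc39a8.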

How the results depend on the processing

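Counts are of probes called, with those higher and then those lower on Chek1_R-labelled arrays in parentheses. Without Dox, 2081 became 3583 (3076 and 507) with one median, 1360 (568 higher) with an offset of 50, 512 (193 and 319) with 200, 384 (143 and 241) at 2-fold and 6933 (3673 and 3260) with no fold limit. With Dox, 1135 became 1872 (1476 and 396), 616 (180 and 436), 185 (51 and 134), 163 (44 and 119) and 5150 (2814 and 2336) in the same order, 714 (284 and 430) by the methods' t-test, and the higher calls 797 without background correction. For the interaction, 969 became 557 (281 and 276) with an offset of 50, 160 (100 and 60) with 200, 187 (134 and 53) at 2-fold and 2272 (1056 and 1216) with no fold limit. Leaving out 1 array gave 2056 to 2241 (946 to 1053 and 1110 to 1213) without Dox, 1095 to 1384 (445 to 590 and 650 to 818) with Dox and 860 to 1016 (398 to 467 and 462 to 569) for the interaction. Dppa5 with Dox turned from −0.02 to 0.83 with one median and to 0.68 with the median of the tested probes. The cause was not tested. With the replicate number as a block the counts were 2078, 1137 and 974. Same-numbered arrays shared only a number, their deviations correlating at 0.0561, −0.1419 and −0.0547 without Dox. Dppa5 was not called as reported and was called with both scalings. Over 163 named genes no called difference reversed under the alternatives run, and 181 values without Dox lost their call, 66 of them at an offset of 200. One median ended 23 of these calls, among them, beside those given above, Tap1, Ttk, Ddit3, Id2, Chrd, Ier3, Cdh3, Pcgf5, Rnf2 and Thy1. The methods' t-test ended 12, also Ccne1, Jak1, Rnf2, Ifi35 and Rhox12. An offset of 50 ended 19, among them Lef1 and Wnt3a, and the median of the tested probes ended 12, among them Lef1, Sqle and Cyp51. Calls of Nr5a2, Nes, Ppp2r4, Pttg1, Mcm3, Rfc5, Ccne1, Rrm2, Inhba, Tap1, Rnf2, Thy1 and Rpl39l ended when 1 or another array of the compared conditions was left out. Signals near background limit the folds of dim genes.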

Other observations

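The genes in this paragraph were chosen after their values were seen. Tcstv1 lay at 7.47, 7.32 and 7.54 against 6.28, 5.66 and 6.03 without Dox (1.45, limma adjusted p 1.05e-07) and differed by 0.85 with Dox. Tcstv3 differed by 1.18 and 0.72, and BB287469 by 1.55 without Dox and by a factor of at least 1.43 with it. The arrays without Dox were separate for Tcstv1, Tcstv3 and BB287469. Wnt5a, a ligand of non-canonical Wnt signalling, lay at 8.81, 8.85 and 8.81 against 7.78, 7.47 and 7.59 without Dox (1.21), and it was lower with Dox (−0.92, interaction 2.12). Fgf10 differed by 1.23 without and −0.42 with Dox (interaction 1.65).

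Some gene families were grouped by symbol, again after their values were seen. Of 19 collagens 8 were called lower and 0 higher (median −0.43, and −0.21 with one median), of 16 integrins 6 and 0 (−0.50 and −0.24), of 8 laminins 3 and 0 (−0.56 and −0.25) and of 12 claudins 5 and 0 (−0.56 and −0.27), against 7.85% of all genes. With Dox 6 collagens were lower and 1 higher, 3 integrins lower and 2 higher, 2 laminins lower and 4 claudins lower, against 4.88% lower and 2.61% higher of all genes. Itgb4, the partner of the α6 integrin, lay at 9.23, 9.22 and 9.12 against 10.48, 10.47 and 10.41 (−1.26, limma adjusted p 1.27e-13). The EGF receptor gene Egfr differed by −1.31 without and −0.69 with Dox.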
